A study of Homo sapiens with 24 samples.

Results

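Ribosome footprints and input RNA were compared within the line titled 841CON, which the labels give as 841-CON, a wild-type normal colon epithelium cell line. Its 2 libraries of ribosome-protected fragments (RPF) were set against its 2 libraries of input RNA (INPUT), so 4 of the 24 libraries of the series were used, chosen by their titles. The tables of both kinds list 20426 genes in common, and 9757 of these were tested. The other 20 libraries came from the colon cancer lines HCT116, HCT15 and SW620 and from HCT15 cells that carried a vector (PLVX) or overexpressed COPS7B, a subunit of the COP9 signalosome. All cells received cycloheximide at 100 µg/mL for 10 minutes before lysis. 841-CON was grown in EMEM and each cancer line in another medium, so line and medium cannot be told apart between lines. The study set out to compare translation efficiency between the cancer lines and 841-CON, and the comparison here asks which mRNAs carry many or few ribosomes for their amount in 841-CON.

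A ribosome that reads an mRNA shields a short stretch of it from nuclease, and sequencing these stretches counts ribosomes along each gene. Dividing the footprint level of a gene by its RNA level shows how densely its mRNA is occupied. Well-initiated mRNAs carry many footprints for their RNA. Messages held back at initiation, kept away from ribosomes or translated for only a short stretch carry few, and slow elongation raises the count without more protein being made.

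The tables identify genes by Ensembl number only, and none of the 20426 numbers could be paired with a symbol through the reference used here. Genes are therefore described as groups, and 4 are given by number. These 4 were not sorted into nuclear and mitochondrially encoded mRNAs, and the general account of low and high footprints above was not tested on them. The label of colon epithelium could not be checked against markers for the same reason, and no sequence is shown. Gene lengths were not used here, so levels are compared between assays for 1 gene and not between genes.

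Counts in the shared genes were 3611421 and 1593920 in RPF replicates 1 and 2, and 1383600 and 6596429 in INPUT replicates 1 and 2. RPF libraries detected 10760 and 10202 shared genes, and INPUT libraries 12226 and 10705. INPUT replicate 2 was the deeper of its pair and detected fewer genes than replicate 1. The RPF pair was close. Among 5210 genes with at least 50 counts in both RPF libraries, 2 differed more than 2-fold between them, and the median absolute log2 difference was 0.12 after centring. Among 5030 such genes of the INPUT pair, 1698 (33.8%) differed more than 2-fold, with a median of 0.70. The chi-square statistic per gene was 1.68 in the RPF pair, above the sampling noise. In the pairs of the series that were not close it was 12.9 to 97.1. The RPF libraries were counted as 2, but a value of 1.68 does not show that they are separate replicates. The number of calls rests on this choice, and fewer genes were called with close pairs summed, as given below. Nothing in the labels gives the replicates as independent cultures. A p-value here covers only how far the sequenced libraries varied, possibly for technical reasons. In the fit to all 24 libraries the spread of a gene is shared by the 12 groups. The SD of the log2 difference between replicates was 1.05 in the 841CON INPUT pair, the widest of these groups, and 0.21 in its RPF pair. The shared spread may therefore understate the INPUT error. With only the 841CON libraries fitted, 1169 of 7939 genes passed edgeR's test, against 3644 of 9757, although that fit also has fewer libraries. Intervals, floors and counts of 0 cover counting error only.

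Footprints were more concentrated on abundant genes than input RNA was. The 100 highest genes held 28.5% and 28.8% of counts in RPF replicates 1 and 2, against 24.7% and 21% in INPUT replicates 1 and 2. The 1000 highest held 61.8% and 62.2% in the RPF libraries and 56.8% and 53.6% in the INPUT libraries. The groups did not overlap in either share, and the difference was not tested. Of the 100 genes highest in RPF by mean level, 52 were also among the 100 highest in INPUT.

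Across the 9757 tested genes, log2(scaled CPM + 1) correlated at r = 0.986 between the RPF libraries and at r = 0.671 between the INPUT libraries. Scaled CPM are CPM over a library size scaled by trimmed means over all 24 libraries. Between an RPF and an INPUT library of 841CON, r was 0.586 to 0.626. The mean RPF level correlated at r = 0.665 with the mean INPUT level of 841CON, at r = 0.309 to 0.467 with the RPF means of the other populations and at r = 0.269 to 0.374 with their INPUT means. These are descriptions across genes, which are not independent replicates. They share libraries, and depth differs between them.

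Footprint and RNA levels differed for 3644 of the 9757 genes (37.3% called) at an adjusted p under 0.05 by edgeR's quasi-likelihood test with Benjamini-Hochberg adjustment. Footprints were higher than RNA for 1297 genes (13.3%) and lower for 2347 (24.1%). The median fitted log2 difference, RPF minus INPUT, was -0.22, and the quartiles lay at -1.44 and 0.79. The scaling sets a typical gene near 0, so a shift in translation shared by every mRNA was not measurable. With the median set close to 0, 1639 genes were higher and 2052 lower, and with no scaling beyond library size 1014 were higher and 2648 lower, around a median of -0.41.

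**Figure D1:**
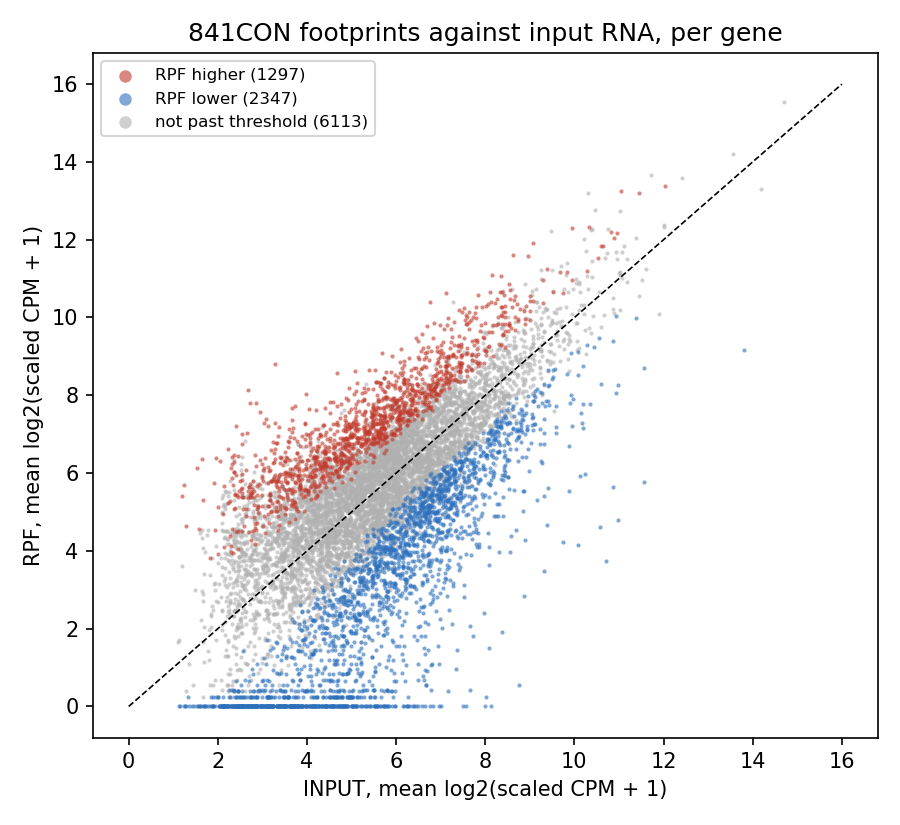
Mean log2(scaled CPM + 1) of each tested gene over the 2 RPF libraries of 841CON (vertical axis) against the mean over its 2 INPUT libraries (horizontal axis), with the dashed line at equal levels. The 1297 genes with higher footprints form a band above the line, and the 2347 with lower footprints spread further below it, down to a row of genes with no footprint count.

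The 2 sides differed in shape. The 1297 higher genes had a median fitted log2 difference of 1.77, with median levels of 143 scaled CPM in RPF and 43.8 in INPUT. All 1297 had at least 10 counts in each RPF library, and 1152 had at least 10 in each INPUT library. The 2347 lower genes had a median of -2.80, with median levels of 8.55 in RPF and 60.6 in INPUT. Of these, 439 had no count in either RPF library and 238 had none in 1 of them, while 1185 had at least 10 counts in each. A gene with no count in either entered the fit only through footprints in other populations. Its direction was thus fixed by the filter, and only 8 such genes were not called. Among genes counted in all 4 libraries of 841CON, 1232 of 8870 were higher and 1621 lower. Among genes with a mean of at least 50 counts in each assay, 937 of 5902 were higher and 646 lower. That minimum removes lower genes by its construction.

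The RPF values lay wholly above or wholly below the INPUT values for 6655 tested genes (68.2%). This held for all 1297 higher genes, for 2246 of the lower ones and for 3112 of the 6113 that did not pass. Each RPF library stood more than 2-fold beyond both INPUT libraries for 923 of the higher and 1801 of the lower genes. At least a 2-fold difference was itself called for 480 higher and 1495 lower genes by edgeR's test against that fold.

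The count of genes depended on which libraries entered the fit. With all 4 close pairs of the series summed to 1 library each, the 841CON RPF pair among them, 388 genes were higher and 787 lower. With only the 4 libraries of 841CON fitted, 495 of 7939 were higher and 674 lower. All of the 388 and 787 genes were among the calls above, in the same direction. Without RPF replicate 1, 613 were higher and 1360 lower, and without RPF replicate 2, 794 and 1386. edgeR, DESeq2 and limma together called 587 higher and 1707 lower genes.

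The 2 INPUT libraries gave partly different genes. Set against INPUT replicate 1 alone, footprints were higher for 1324 genes and lower for 2167. Set against INPUT replicate 2 alone, they were higher for 1686 and lower for 2346. Both fits called 669 genes higher and 1470 lower, and 77 genes were called in opposite directions. The RPF libraries enter both fits, and each fit has 1 INPUT library of 841CON, which is assumed to vary like the other groups. All 1297 higher genes had a positive difference against each INPUT library, and 2262 of the 2347 lower genes a negative one. The genes were called from the same 4 libraries. These signs were therefore largely fixed by the choice of genes and do not show that the INPUT libraries agree.

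ENSG00000219200 had the highest fitted difference among the 1114 higher genes with at least 50 counts in each RPF library and 10 in each INPUT library. It stood at 460 and 437 scaled CPM in RPF replicates 1 and 2, against 11.3 and 6.63 in INPUT replicates 1 and 2. Its means were 448 ± 15.8 in RPF and 8.99 ± 3.34 in INPUT (SD, n = 2 each), a 49.9-fold difference of means. The fitted log2 difference was 5.74 with a standard error of 0.66 (edgeR adjusted p = 5.82e-06). INPUT rested on 13 and 39 counts. This gene and the next 3 were chosen for the size of their difference, so their p-values are descriptions.

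The next gene passed the test in 841CON and HCT116 only, among the 4 lines. ENSG00000170266 stood at 225 and 221 scaled CPM in the RPF libraries, against 10.5 and 3.57 in the INPUT libraries, resting on 12 and 21 INPUT counts. Its fitted log2 difference was 5.21 with a standard error of 0.44 (edgeR adjusted p = 2.54e-07), and it was 5.93 without INPUT replicate 1 and 4.4 without INPUT replicate 2. In HCT116 its fitted difference was 3.63 (edgeR adjusted p = 1.04e-06), while in HCT15 it was 0.32 and in SW620 0.51, neither past the threshold (edgeR adjusted p = 0.552 and 0.707). ENSG00000219200 differed by 5.81 in HCT116 (edgeR adjusted p = 1.3e-06) and by 5.82 in the COPS7B cells (edgeR adjusted p = 6.36e-05). It had too little RNA to be tested in the other populations, at 2 to 13 INPUT counts. Both RPF values lay above both INPUT values there too. In scaled CPM they were 207 and 486 against 1.44 and 6.20 in HCT15. They were 80.3 and 394 against 2.19 and 5.27 in SW620, and 468 and 476 against 1.83 and 5.53 in the vector cells. Its high footprint level for its RNA was therefore not particular to 841CON, and the reason was not tested.

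ENSG00000198712 had the lowest fitted difference among the 1042 lower genes with at least 50 counts in each INPUT library and 10 in each RPF library. It stood at 14.9 and 10.3 scaled CPM in the RPF libraries, against 720 and 3879 in INPUT replicates 1 and 2. Its means were 12.6 ± 3.26 in RPF and 2299 ± 2233 in INPUT (SD, n = 2 each). The INPUT values differ severalfold between replicates, and the RPF values lie far below both. The fitted log2 difference was -7.47 with a standard error of 0.82 (edgeR adjusted p = 3.33e-06). It was -8.23 without INPUT replicate 1 and -5.79 without INPUT replicate 2.

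ENSG00000198899 followed, at 3.83 and 9.52 scaled CPM in the RPF libraries, against 259 and 827 in the INPUT libraries. The RPF values rested on 10 and 12 counts. Its fitted log2 difference was -6.45 with a standard error of 0.67 (edgeR adjusted p = 2.08e-06). It was -5.85 without RPF replicate 1, -7.16 without RPF replicate 2, -7.08 without INPUT replicate 1 and -5.39 without INPUT replicate 2. For these lower genes, INPUT replicate 2 held the higher value in both cases, and the groups did not overlap.

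**Figure D2:**
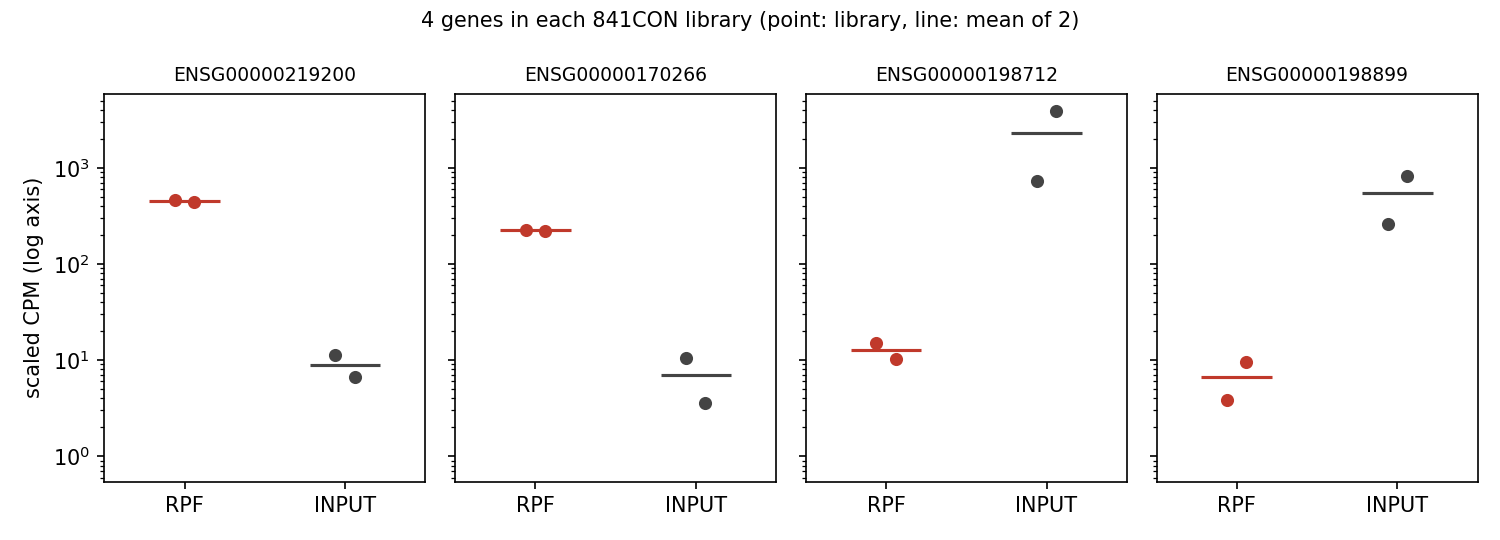
Scaled CPM on a log axis of 4 genes in each 841CON library, with RPF left and INPUT right; points are libraries and lines the mean of 2. For ENSG00000219200 and ENSG00000170266 both RPF points sit above both INPUT points, and for ENSG00000198712 and ENSG00000198899 both sit below, with the INPUT points of ENSG00000198712 furthest apart.

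The groups chosen by the same rule were wide in level. The 12 genes with the highest fitted differences ranged from 3.59 to 5.74, with 63.9 to 460 scaled CPM in RPF libraries and 1.70 to 36.7 in INPUT libraries. The 12 lowest ranged from -7.47 to -4.79, with 3.83 to 57.9 in RPF and 177 to 4835 in INPUT. Of the 8 genes most abundant in RPF, at 9234 to 49305 scaled CPM in RPF libraries and 609 to 37133 in INPUT libraries, 2 were called higher and 0 lower (13.3% and 24.1% of all tested genes). Among the 100 most abundant in RPF 39 were higher and 0 lower, and among the 100 most abundant in INPUT 11 were higher and 28 lower. Ranking on either assay favours one side by construction.

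Lower calls were most frequent in the quartile of genes with the most RNA, without a steady rise below it. In the quartile of genes with the most 841CON INPUT, 11.4% were higher and 30.3% lower, against 16.2% and 22.9% in the quartile with the least. The quartiles between had 20.0% and 23.0% lower genes. INPUT noise enters both the rank and the difference. Ranked instead on RNA in the HCT15 INPUT libraries, which are independent of the 841CON ones, the top quartile had 16.6% higher and 27.4% lower genes and the bottom quartile 8.65% and 21.4%. The higher share thus turned its order between the 2 rankings, while the lower share was larger at the top in each. The median fitted difference turned its order too. It was 0.18 in the bottom and -0.47 in the top quartile by 841CON INPUT, against -0.29 and -0.20 by HCT15 INPUT. The difference between quartiles was not tested, nor was the part of count depth in it.

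Some genes with INPUT counts had no footprint count in either RPF library. A count of 0 gives only a bound set by depth. The mean INPUT count used here weighs INPUT replicate 2 more, because it was the deeper library. Among genes with a mean of 10 to under 20 INPUT counts, 28.2% (173 of 614) had no count in either RPF library, and the share fell through 10.6% at 50 to under 100 counts to 0.427% (3 of 703) at 1000 or more. Of the 8301 genes with a mean of at least 50 INPUT counts, 323 (3.89%) had none. Genes with 1 to 5 footprint counts numbered 200 in that range, fewer than those with 0. The 2 RPF libraries were alike in their zeros, with 9518 shared genes at 0 in both, 706 counted in replicate 1 only (at most 19 counts) and 148 in replicate 2 only (at most 6 counts).

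**Figure D3:**
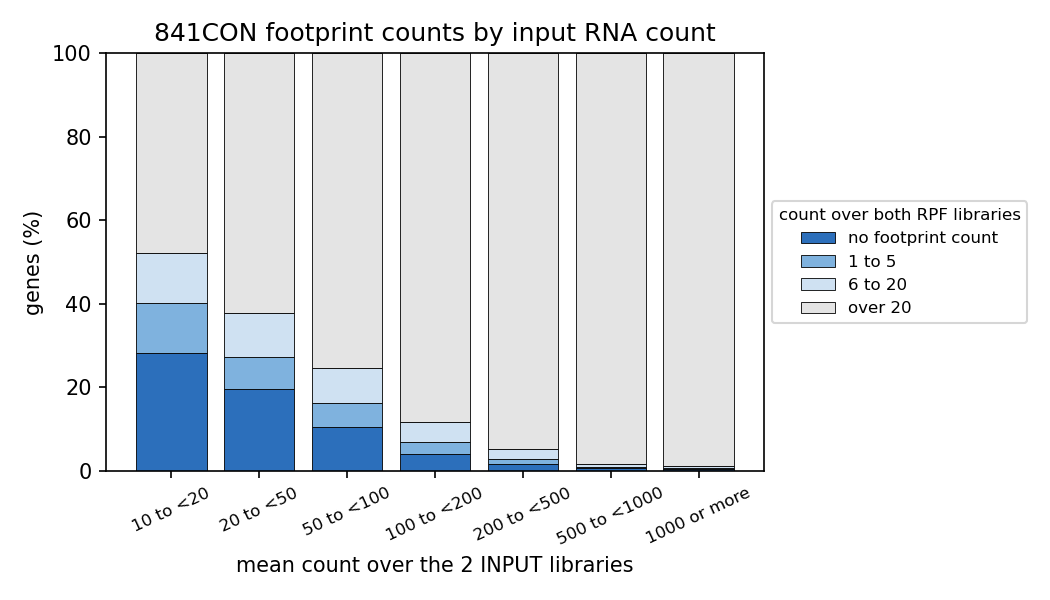
Share of genes (percent, vertical axis) by their count over both 841CON RPF libraries, for classes of mean count over the 2 INPUT libraries (horizontal axis). The class with no footprint count takes 28.2% of genes at 10 to under 20 INPUT counts and 0.427% at 1000 or more, and is larger than the class with 1 to 5 counts in all 7 columns.

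Of the genes with no footprint, the 6 with the most RNA had 127 to 345 scaled CPM in the INPUT libraries. A floor of 3 counts over both RPF libraries corresponds to 0.775 scaled CPM. Set against the lower of each gene's INPUT values, footprints were at least 164-fold lower than RNA in the gene with the smallest bound and at least 298-fold lower in the gene with the largest. Only 2 of the 6 had enough footprints elsewhere in the series to enter the test, and a lower call was then fixed by the choice of genes.

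Many of these genes had footprint counts in other cells. Of the 323, 178 also had a mean of at least 50 INPUT counts in the COPS7B cells, and 154 of those had at least 10 footprint counts there. In parental HCT15 110 of 170 did, in the vector cells 59 of 97, in HCT116 34 of 94 and in SW620 29 of 100. The share with no footprint was 6.18% in the COPS7B cells, 23.5% in HCT15, 13.4% in the vector cells, 56.4% in HCT116 and 26% in SW620. Among genes that did have footprints in 841CON, it was 0% in the COPS7B cells, 0.122% in HCT15, 0% in the vector cells, 7.20% in HCT116 and 1.49% in SW620. Pooled RPF depth was 5205341 counts in 841CON, against 8262540 in the COPS7B cells, 6152841 in HCT15, 2704273 in the vector cells, 2010595 in HCT116 and 182305 in SW620. The part of depth in these shares was not tested.

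The same genes were followed in populations that share no library with 841CON, although the model shares its spread and scaling between them. Of the 841CON higher genes tested in each, 35.4% were higher in HCT15 (10% of all its tested genes, with 24.9% called either way), 30.4% in HCT116 (15.8%), 1.81% in SW620 (0.808%), 15.1% in the vector cells (3.85%) and 10.1% in the COPS7B cells (1.66%). Calls either way took 58.5% of tested genes in HCT116, 7.48% in SW620, 10.6% in the vector cells and 3.65% in the COPS7B cells. Of the lower genes, 34.6% were lower in HCT15 (14.9%), 55.3% in HCT116 (42.6%), 11.5% in SW620 (6.67%), 20.7% in the vector cells (6.77%) and 8.25% in the COPS7B cells (1.99%). Read the other way, over genes tested in both populations, the 841CON higher genes made up 45.2% of the HCT15 higher genes, 26% of those of HCT116, 31.0% of those of SW620, 50.4% of those of the vector cells and 77.0% of those of the COPS7B cells. They were 13.4% to 14.5% of all genes tested in both. The lower genes made up 54.5% of the lower genes in HCT15, 32.9% in HCT116, 38.5% in SW620, 67.6% in the vector cells and 87.6% in the COPS7B cells, and 24.7% to 24.8% of all genes tested in both. The 3 HCT15 populations are forms of 1 line.

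**Figure D4:**
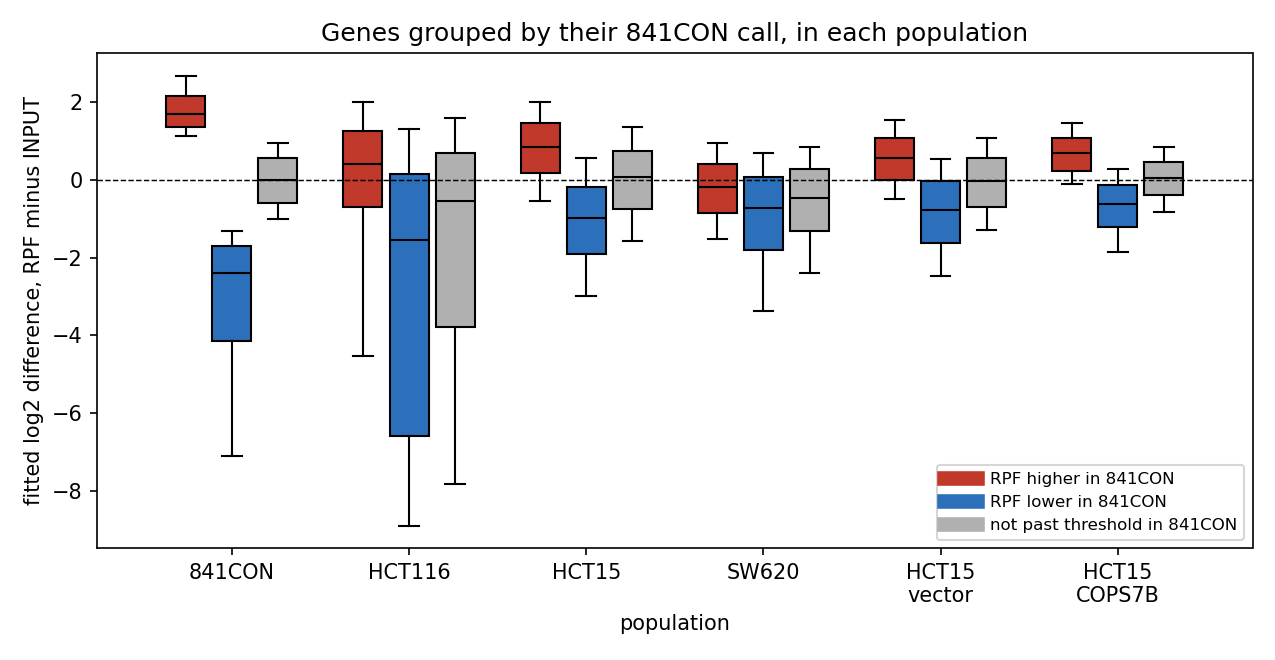
Fitted log2 difference, RPF minus INPUT, of genes tested in every population, grouped by their 841CON call (red higher, blue lower, grey not past the threshold); boxes span the quartiles, lines inside are medians and whiskers reach the 10th and 90th percentiles. The red median lies above the blue one in each population, and the red and blue boxes overlap in HCT116 and SW620. The blue box of HCT116 reaches furthest down.

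The order of the groups was kept outside 841CON. The 841CON higher genes had a median fitted difference of 0.83 in HCT15, against 0.02 for genes not called in 841CON. The lower genes had -0.97 there. The corresponding medians for higher, lower and uncalled genes were 0.39, -1.62 and -0.59 in HCT116, and -0.18, -0.72 and -0.46 in SW620. Opposite calls were fewest in the COPS7B cells, at 0 in either direction. They were most in HCT116, where 270 of 1210 higher genes were lower and 223 of 2108 lower genes were higher. The number of calls differed as well. Over genes tested in both populations, the COPS7B cells had 165 higher and 217 lower calls, against 1415 and 3537 in HCT116. Opposite counts alone therefore do not compare agreement between populations. In SW620 48 of the 1214 higher genes were called lower, more than the 22 called higher. Over 7568 genes tested in all 6 populations, 4 of 1139 higher genes were higher in all 6 and 57 of 1884 lower genes were lower in all 6. No other population called 510 of the 1139 and 498 of the 1884 in the same direction, and this does not show that they differ there.

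The difference itself was tested against the mean of HCT116, HCT15 and SW620, and 2331 of 7707 genes passed (30.2%). Footprints per RNA in 841CON were higher than that mean for 1609 genes (20.9%) and lower for 722 (9.37%) by edgeR's quasi-likelihood test, with a median fitted difference of 0.47. Of the 1609, 648 were higher in footprints than in RNA within 841CON, 896 were not called there and 65 were lower. Of the 722, 628 were lower within 841CON and 94 were not called. A pooled culture does not tell fewer cells with an RNA from less of it in each cell.

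The larger side of this comparison depended on HCT116. Of the 1609 genes, 466 had no footprint count in either HCT116 library. Without HCT116 in the mean 732 genes were higher, 609 of them among the 1609, and 747 lower, 492 of them among the 722, and with the median set close to 0, 896 were higher and 1055 lower. Among genes counted in every compared library, 680 of 4732 were higher and 489 lower. Of the 722 lower genes, 72 had no footprint in 841CON. These 72 and the 466 above entered the fit only through footprints in other populations, which favours the direction of their call.

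**Figure D5:**
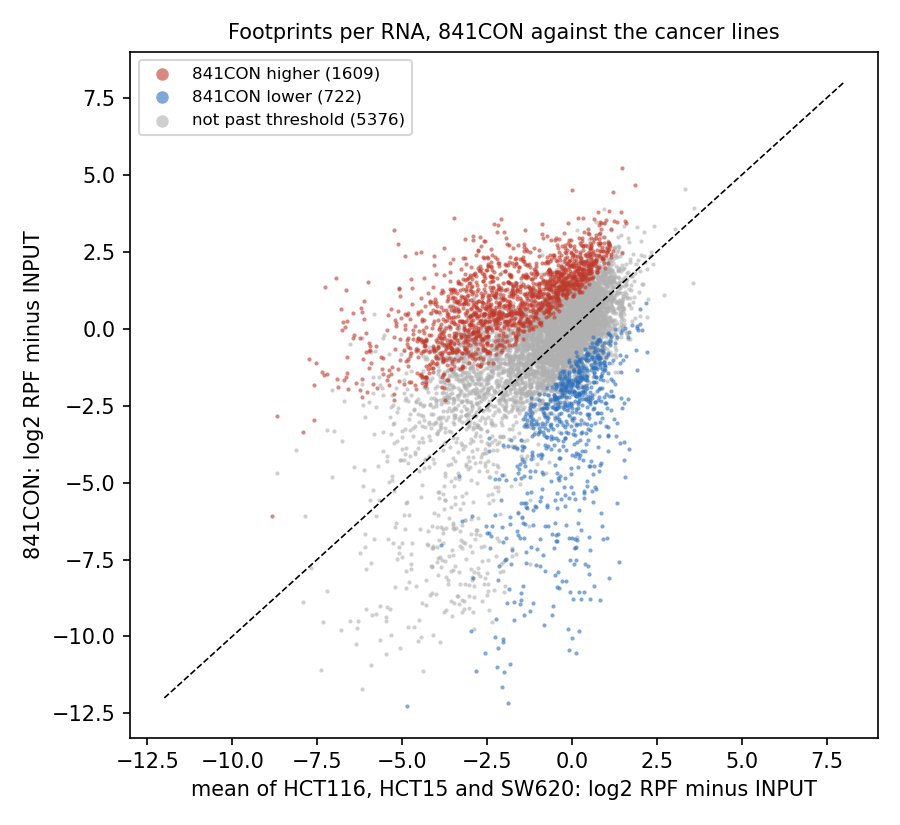
Fitted log2 difference, RPF minus INPUT, of each gene in 841CON (vertical axis) against its mean over HCT116, HCT15 and SW620 (horizontal axis), with the dashed line at equality. The 1609 genes called higher in 841CON lie above the line and reach far to the left, and the 722 called lower lie below it.

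Of the 4 genes, 3 entered this comparison. They were chosen for extreme values in 841CON, which favours the direction seen here, so their values are descriptions. ENSG00000170266 was higher in 841CON than in the mean of the cancer lines by 3.73 on the log2 scale, with a standard error of 0.49 (edgeR adjusted p = 4.28e-05), or by 2.91 to 4.80 without 1 841CON library or 1 cancer line, lowest without INPUT replicate 2 and highest without HCT116. ENSG00000198712 differed by -5.54 with a standard error of 0.81 (edgeR adjusted p = 0.000127). It was -7.30 without HCT15 and -3.86 without INPUT replicate 2, the widest values when 1 841CON library or 1 cancer line was left out. Its footprints stood at 14.9 and 10.3 scaled CPM in 841CON, against 2980 and 3012 in HCT116, 186 and 64.4 in HCT15 and 7924 and 10586 in SW620. ENSG00000198899 differed by -4.39 with a standard error of 0.69 (edgeR adjusted p = 0.000224). It was -6.17 without HCT15 and -2.81 without SW620, the widest such values. Both genes were also lower in footprints than in RNA in HCT15, where the fitted differences were -5.45 and -5.63 (edgeR adjusted p = 6.02e-05 and 1.03e-05). In SW620 they were 0.29 and 1.10 and did not pass (edgeR adjusted p = 0.838 and 0.211). In HCT116 ENSG00000198712 differed by -0.64 and did not pass (edgeR adjusted p = 0.374), while ENSG00000198899 was lower at -1.65 (edgeR adjusted p = 0.00973). Both passed lower in the vector cells, at -3.11 and -3.98 (edgeR adjusted p = 0.00469 and 0.000201), and in the COPS7B cells, at -2.62 and -2.73 (edgeR adjusted p = 0.0247 and 0.00541).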

How the data were processed

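The authors deposited 1 table of raw counts per Ensembl gene for each library. Tools listed in the submitters' processing notes are STAR 2.7.9, HTSeq 2.0.2 and cutadapt 3.5, with build GRCh38. The counted feature, annotation, strand setting and handling of multi-mapping reads were not given in the sources used here, nor whether untranslated regions were counted. Paralogs, overlapping and antisense genes are therefore uncertain. INPUT files hold 60623 genes, among them all 20426 genes of the RPF files. Whether the 2 assays were counted against different gene lists was not given. The part of this in footprints per RNA, also for the 1297 higher genes, was not tested. The 5 summary lines at the end of some tables were left out.

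A quasi-likelihood model in edgeR 4.0.16 under R 4.3.3 took all 24 libraries in 12 groups, leaving 12 residual degrees of freedom. It held 11938 genes that passed filterByExpr (minimum count 10) in each assay, scaled by trimmed means over all libraries. Genes with a mean of at least 10 counts in 841CON INPUT were tested, or in the INPUT of all 4 lines for the second comparison. Tests are two-sided. Standard errors were taken from the fitted difference and its F statistic. The procedure was tested on simulated data.

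Alternatives used other scalings, DESeq2 1.42.0, limma 3.58.1, other filters, a replicate block, summed close pairs, subsets of libraries and each library left out. Centring on the median was added after seeing the data. The rule for genes given by number took the 12 highest and 12 lowest fitted differences with set count minimums; only the first 2 of each are printed because no number could be paired with a symbol. For that reason 21 gene lists and 4 marker lists were not applied. Members, lists and tests were chosen with earlier results of these data known.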

Additional observations from a re-analysis of the deposited data

Results flagged for a closer look

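The difference between lines was past the threshold of edgeR's quasi-likelihood test, as a difference of differences, for 1609 genes with higher and 722 genes with lower footprints per RNA in 841CON than in the mean of HCT116, HCT15 and SW620. Among the genes given by number it was 3.73 on the log2 scale for ENSG00000170266, -5.54 for ENSG00000198712 and -4.39 for ENSG00000198899. These genes were chosen for extreme 841CON values, which favours the direction of the difference, so the values are descriptions. Groups of 2 libraries were too small to look for a library far from the others. The INPUT tables also hold counts in 40197 genes that the RPF tables do not list and that no comparison used. They took 14.4% of counts in INPUT replicate 1 and 27.6% in INPUT replicate 2 of 841CON.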

How the results depend on the processing

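The 3644 genes called between footprints and RNA stayed within 1.5 times in 13 of 19 alternatives. The count was 1583 with a mean of at least 50 counts in each assay, where 59.2% of calls were higher against 35.6%, and it was 1975 for at least a 2-fold difference, of which 24.3% were higher. It was 1175 with close pairs summed and 1169 with only the 841CON libraries fitted, and without each 841CON library in turn it was 1973 to 4032. With the median set close to 0 as well, it was 3987 without INPUT replicate 1, where 45.6% of calls were higher, and 3516 without INPUT replicate 2. The 2331 genes of the comparison with the cancer lines stayed within 1.5 times in 12 of 20 alternatives. There the count was 32 of 135 tested with at least 50 counts in each group (50% higher, against 69.0%), 1169 with genes counted in every compared library (58.2% higher), 1165 for at least a 2-fold difference, 1529 by limma, 670 with close pairs summed and 1479 without HCT116 in the mean (49.5% higher). It was 1278 to 2606 without each 841CON library in turn. The share of higher calls was 45.9% with the median set close to 0, 57.7% without scaling and 59.0% by DESeq2. The replicate block gave 3069 and 1871 genes; the deviations of same-numbered RPF and INPUT libraries correlated at r = -0.057 across 8337 genes, so the numbers were not taken as pairs. The 4 genes given by number kept their direction and their call in every alternative that tested them, with adjusted p up to 0.0283 by the tool of that alternative. None of the 4 was tested at the minimum mean of 50 counts, because 1 assay of 841CON held too few counts. ENSG00000198899 was also not tested with only the 841CON libraries fitted. Causes were not tested. Depth limits the low end: a gene with no footprint has only a bound, and the SW620 RPF libraries left 135 genes at the stricter minimum.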

Other observations

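The 841CON INPUT libraries differed in which genes they counted at all. INPUT replicate 1 counted 1872 shared genes that INPUT replicate 2 did not, with up to 146 counts each, although replicate 2 was the deeper library. Of these, 477 had at least 10 counts in replicate 1. Replicate 2 counted 351 genes that replicate 1 did not, with up to 267 counts. The chi-square statistic per gene between the INPUT libraries was 97.1 over genes with at least 50 counts in both, against 1.68 between the RPF libraries.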
